A study of Mus musculus with 15 samples.

Results

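A set of 9 genes that usually mark group 3 innate lymphoid cells (ILC3s) was followed through RNA-seq libraries of cells sorted as group 2 cells. The 9 members are *Ahr*, *Il23r*, *Il22*, *Il17a*, *Il17f*, *Lta*, *Ltb*, *Il1rn* and *Upp1*, found by their symbols among 24089 gene symbols (24690 entries) in each library, and all 9 were found once. There were 15 libraries, 7 of mature ILC2s from the lamina propria (LP) of the gut and 8 of their precursors (ILC2p) from the bone marrow (BM), and each cell type was sequenced in 2 experiments. LP ILC2s were sorted as CD45+Lin-CD127+Sca-1+CD25+KLRG1+ cells from C57BL/6 Tgfbr2 f/f ER-Cre+ mice aged 8 to 12 weeks. The mice carried the floxed alleles and the Cre in both groups. They were given sunflower oil (WT) or tamoxifen at 1 mg per day (Tgfbr2-/-) for 5 days and taken 1 day after the last dose. The Cre is not tied to a cell type, so tamoxifen also acted on other cells of these mice. BM ILC2p were sorted, by the study's methods, as CD45.2+Lin-CD127+α4β7+CD25+ cells from irradiated CD45.1 hosts that had received, with CD45.1 marrow, marrow of tamoxifen-treated (Tgfbr2-/-) or oil-treated (WT) Tgfbr2 f/f ER-Cre+ mice 6 weeks before. The labels give the 5 days of oil or tamoxifen for the ILC2p too but name no chimeras, so the chimeras rest on the methods alone. In LP ILC2s, experiment 1 had 2 WT and 2 Tgfbr2-/- libraries and experiment 2 had 2 WT libraries and 1 Tgfbr2-/- library. In BM ILC2p, each experiment had 2 WT and 2 Tgfbr2-/- libraries. Total counts on genes were between 12167066 and 32114265 in ILC2s and between 10957021 and 35961215 in ILC2p. The labels do not say how many mice stand behind a library, so p-values measure the spread between libraries.

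ILC3s guard the gut wall by answering IL-23 and IL-1β with IL-22 and IL-17. The aryl hydrocarbon receptor (AHR), a transcription factor that binds ligands from diet, microbes and metabolism, is needed for their upkeep and for *Il22* transcription. The IL-23 receptor chain encoded by *Il23r* signals through STAT3. Lymphotoxins α and β, the products of *Lta* and *Ltb*, are the ligands with which the related lymphoid tissue inducer cells start lymph nodes and gut follicles. ILC2s instead depend on GATA3, respond to IL-33 through ST2 and make IL-5 and IL-13, and TGF-β acts on these cells through the receptor chain encoded by *Tgfbr2*.

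Every library held ILC2 marker genes, though in Tgfbr2-/- ILC2p they summed to far less than the neutrophil genes described below. *Gata3*, the most abundant of 8 ILC2 markers, was at 2269 to 4689 CPM (each count scaled by TMM-adjusted depth over all 15 libraries) in LP ILC2s and at 868 to 4723 CPM in BM ILC2p. The 8 ILC2 markers summed to 5942 to 8911 CPM in LP ILC2s, to 4529 to 6556 CPM in WT ILC2p and to 1757 to 2988 CPM in Tgfbr2-/- ILC2p. *Il5* and *Il13*, the cytokine genes among them, were nearly absent from most ILC2p libraries. Of the ILC3 surface and effector genes in a list of 10, all 10 passed the filter on low counts in LP ILC2s. *Kit*, the stem cell factor receptor, was at 189 to 486 CPM there, *Tnfsf11*, which encodes the lymphotoxin-like ligand RANKL, at 119 to 205 CPM, *Ccr6*, a chemokine receptor of lymphoid tissue inducer cells, at 1.52 to 34.6 CPM, and *Ncr1*, which encodes NKp46, at 6.40 to 99.7 CPM. In bulk RNA, a few cells with a high level and many cells with a low level cannot be told apart.

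Some libraries stood apart from the rest. In the 4 Tgfbr2-/- ILC2p libraries 9 neutrophil genes summed to 76412 to 92971 CPM, against 787 to 1553 CPM in the 4 WT ILC2p libraries and at most 3.71 CPM in LP ILC2s. The most abundant of them, *S100a8*, was at 23741 to 29536 CPM in Tgfbr2-/- ILC2p. The macrophage gene *Lyz2*, which neutrophils also express, was at 10859.8 to 12528 CPM in the same libraries. In experiment 2, the epithelial keratin gene *Krt8* reached 33.8 and 223 CPM in the WT libraries and 576 CPM in the Tgfbr2-/- library of LP ILC2s, against at most 10.4 CPM in experiment 1. WT replicate 2 of that experiment also held macrophage transcripts, with the complement gene *C1qa* at 94.1 CPM against at most 5.60 CPM in the other ILC2 libraries. The ILC2p libraries also lacked genes that the others held. Of 3454 genes whose median over the 15 libraries reached 50 CPM, 0.232% to 12.5% were under 1 CPM in an ILC2p library (median 4.57%), against 0.0579% to 0.116% in an ILC2 library. The highest shares were in Tgfbr2-/- replicate 2 of experiment 1 (12.5%), WT replicate 1 of experiment 1 (11.1%), Tgfbr2-/- replicate 1 of experiment 1 (10.6%) and Tgfbr2-/- replicate 2 of experiment 2 (7.27%). A level near 0 in 1 ILC2p library is therefore not read here as absence.

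The count on the whole *Tgfbr2* gene did not separate the genotypes, and reads of the floxed part alone were not compared. LP ILC2s held 172, 261, 149 and 207 CPM in the WT and 206, 184 and 96.3 CPM in the Tgfbr2-/- libraries. ILC2p held 0.712, 232, 107 and 188 CPM in the WT and 87.2, 130, 30.8 and 218 CPM in Tgfbr2-/- libraries. The groups overlapped in both cell types, and the genotype of each library is its label (log2 fold change -0.46, standard error 0.24, in ILC2s and -0.21, standard error 1.21, in ILC2p, edgeR). In every list of values here, the libraries of experiment 1 come first.

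The members lay at very different levels per length of transcript. In LP ILC2s the median RPKM (reads relative to transcript length and depth, as deposited) was 1196 for *Ltb*, 150 for *Il22*, 41.2 for *Ahr*, 24.7 for *Lta*, 24.1 for *Upp1*, 9.07 for *Il17f*, 4.33 for *Il17a*, 2.97 for *Il23r* and 0 for *Il1rn*. *Ltb* stood above all the others in each of the 7 libraries, with 797 to 1862 RPKM against at most 357 RPKM for *Il22*. The ranges of *Ahr* (32.0 to 65.8 RPKM) and *Lta* (23.4 to 50.4 RPKM) overlapped, as did those of *Lta* and *Upp1* and of the 3 genes *Il17f*, *Il17a* and *Il23r*. *Il22* spanned 1.81 to 357 RPKM and so crossed most of this order. In ILC2p *Ltb* again led (median 1662 RPKM, from 994 to 3120), followed by *Upp1* (9.04) and *Ahr* (8.76), whose ranges overlapped. The other 6 members had a median under 1 RPKM in ILC2p, and *Il22*, *Il17a* and *Il17f* had no read in any of the 8 libraries.

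**Figure D1:**
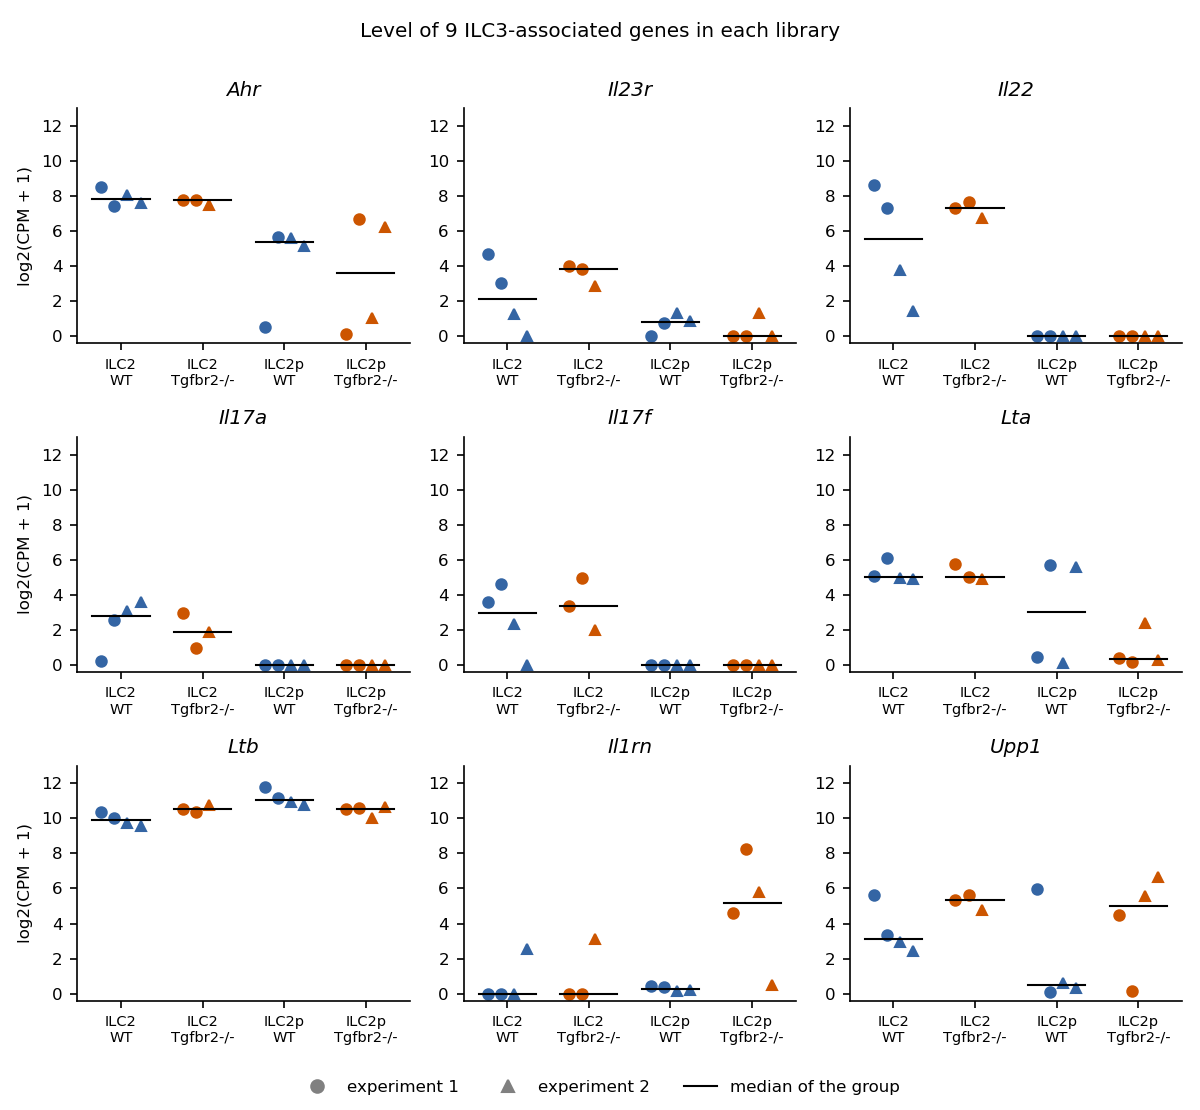
Level of each member, as log2(CPM + 1), in the 15 libraries by cell type and genotype (colour); circles are experiment 1, triangles experiment 2, and lines mark the group median. *Il22*, *Il17a* and *Il17f* sit at 0 in all 8 ILC2p libraries, *Ltb* is high in all 15, and the 2 lowest *Il22* values of LP ILC2s are the WT libraries of experiment 2.

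*Ahr* was present in every LP ILC2 library. The WT libraries held 363, 168, 260.1 and 193 CPM and the Tgfbr2-/- libraries 214, 213 and 175 CPM (246 ± 87.1, SD, n = 4, and 201 ± 22.2, SD, n = 3). The Tgfbr2-/- values lay inside the WT range, and the log2 fold change fitted to them was -0.37 (with a standard error of 0.28, adjusted p = 0.898, edgeR). ILC2p held 0.445, 48.3, 48.0 and 34.3 CPM in the WT and 0.0990, 102, 1.02 and 74.0 CPM in the Tgfbr2-/- group. Of the 3 ILC2p libraries near 1 CPM or below, 2 were among the 4 with the highest share of abundant genes under 1 CPM, and the third had a share of 1.88%. The other 2 of those 4 held the most *Ahr* of all ILC2p libraries (102 and 74.0 CPM), so low *Ahr* did not follow that share. *Ahr* was 5.88 times as high in ILC2s as in ILC2p by the means over libraries, with no overlap (exact permutation of the cell type within genotypes, two-sided, p = 0.00163). Of the 10682 genes tested between the cell types, 2.27% were likewise higher in every ILC2 library than in every ILC2p library. The fitted log2 fold change of *Ahr* was 2.56 (standard error 0.96) and did not pass over all genes (adjusted p = 0.226, edgeR), but it passed with DESeq2 (adjusted p = 0.0451) and with limma on log2(RPKM + 1) (adjusted p = 0.0073), which called 12.2% and 12.5% of all genes tested, against 4.03% with edgeR. Tissue, sort gate, the chimeras that the methods describe and the experiments, whose title codes differ between the cell types, go with the cell type and cannot be told apart from it.

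Of 7 partners and target genes of AHR, 5 passed the filter in LP ILC2s and 0 were called between genotypes, as were 0% of all genes tested (median log2 fold change -0.49, against -0.01 over all genes tested). *Tiparp*, a target gene whose product ADP-ribosylates AHR and damps it, was at 363 to 640 CPM in ILC2s. In ILC2p it was at 0.207 to 114 CPM, and it was called higher in ILC2s (log2 fold change 3.38, standard error 0.80, adjusted p = 0.0255, edgeR). *Ahrr*, which encodes the AHR repressor, was at 40.6, 9.79, 18.4 and 20.8 CPM in WT and at 6.29, 0.461 and 4.14 CPM in Tgfbr2-/- ILC2s, and had no read in ILC2p. Every Tgfbr2-/- value of *Ahrr* was below every WT value, as for 2.35% of the 11981 genes tested in LP ILC2s, but the difference did not pass over all genes (log2 fold change -2.67, standard error 1.01, adjusted p = 0.898, edgeR). *Cyp1a1*, the xenobiotic-metabolizing enzyme most used as an AHR readout, had reads in 3 of the 7 ILC2 libraries and reached 14.98 CPM, in the WT library with macrophage and epithelial transcripts.

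*Il23r*, the receptor chain specific for IL-23, was low. WT ILC2s held 24.5, 7.05, 1.40 and 0 CPM, and Tgfbr2-/- ILC2s 15.1, 13.3 and 6.17 CPM. The 2 lowest values were the WT libraries of experiment 2, and within experiment 1 the genotypes overlapped. The fitted log2 fold change between genotypes was 1.21 (standard error 1.36, adjusted p = 0.926, edgeR). The WT ILC2p libraries held 0, 0.696, 1.52 and 0.823 CPM and the Tgfbr2-/- libraries 0, 0, 1.44 and 0 CPM, at most 54 reads in a library. The means over libraries were 17.2 times as high in ILC2s as in ILC2p (exact permutation, two-sided, p = 0.00612, groups overlapping). The fit gave 4.10 log2 (standard error 1.52, adjusted p = 0.218, edgeR).

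The genes of the signalling chain behind this receptor were mostly present in both cell types. All 9 genes of the list passed the filter in LP ILC2s, and *Il12rb1*, the receptor chain shared with IL-12, was at 166 to 335 CPM and *Stat3* at 329 to 495 CPM there. In ILC2p *Il12rb1* was at 0.623 to 118 CPM and *Stat3* at 187 to 632 CPM. In ILC2p 8 of the 9 passed it, and *Irf4*, a transcription factor gene, did not (at most 3.90 CPM, with no read in 3 of 8 libraries). None of the 9 tested in ILC2s and of the 8 tested in ILC2p was called between genotypes, where 0% and 3.47% of all genes tested were. *Socs3*, a STAT3-induced inhibitor of cytokine receptors, was the single call of the list between experiments, where 0.977% of all genes tested were called. It was at 204, 198, 109 and 90.7 CPM in experiment 1 and at 65.1, 114 and 42.4 CPM in experiment 2 (log2 fold change -1.22, standard error 0.24, adjusted p = 0.0999, edgeR), just inside the threshold of 0.1. The call was lost without any 1 of the 7 libraries (-1.48 to -1.05, adjusted p from 0.131 to 0.264), as it was with upper quartile scaling (-1.06, adjusted p = 0.143), with limma on log2(RPKM + 1) (-1.04, adjusted p = 0.124) and among WT libraries alone (-1.19, adjusted p = 0.255). It held with DESeq2 and without the filter.

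*Il22* encodes the cytokine with which ILC3s act on gut epithelium. In C57BL/6 mice it has a near copy, *Iltifb*, and reads can fall on either, so the pair was compared before the levels were read. In NCBIM37 (mm9) *Il22* spans bases 117641998 to 117647098 of chromosome 10 (plus strand) and *Iltifb* bases 117726685 to 117732094 (minus strand), 79586 bases away. Each has 5 coding exons and 537 coding bases without the stop codon, of which 9 differ (98.32% identity). The longest coding stretch without a difference is 215 bases, and 45.49% of all stretches of 50 coding bases are the same in both. The stretches of 60 coding bases below hold 8 of the 9 differences, in capitals, and are shown because, within the coding bases, reads can be told apart by such differences alone. The ninth difference lies outside these stretches, and bases outside the coding sequence were not compared. They are in coding exons 1, 2 and 5 of NCBIM37 and are written in the direction of transcription. The first pair is chr10:117642144-117642203 (plus) and chr10:117731889-117731948 (minus), the second chr10:117642626-117642685 and chr10:117731407-117731466, and the third chr10:117646505-117646564 and chr10:117727225-117727284.
Il22, coding bases 98 to 157: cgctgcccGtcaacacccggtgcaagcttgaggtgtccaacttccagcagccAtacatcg
Iltifb, coding bases 98 to 157: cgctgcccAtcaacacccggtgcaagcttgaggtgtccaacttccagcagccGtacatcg
Il22, coding bases 187 to 246: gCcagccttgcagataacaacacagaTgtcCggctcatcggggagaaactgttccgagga
Iltifb, coding bases 187 to 246: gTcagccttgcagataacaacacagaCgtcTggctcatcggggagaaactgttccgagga
Il22, coding bases 463 to 522: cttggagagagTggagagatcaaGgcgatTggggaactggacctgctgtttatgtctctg
Iltifb, coding bases 463 to 522: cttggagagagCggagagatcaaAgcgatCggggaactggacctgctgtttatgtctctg

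The count on *Iltifb* was a steady share of the counts on the pair, 20% to 28.7% (median 26.5%) over the 7 ILC2 libraries. Reads with several hits were kept in the mapping, so how much of this share is transcription of *Iltifb* was not tested. The levels of *Il22* may therefore be those of the pair in part.

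The mean level of *Il22* was further apart between the WT libraries of the 2 experiments than between genotypes. The WT libraries held 389 and 156 CPM in experiment 1 and 12.4 and 1.67 CPM in experiment 2, below both values of experiment 1 as for 20.8% of the 11981 genes tested. In Tgfbr2-/- ILC2s it was at 157 and 203 CPM in experiment 1 and at 104 CPM in experiment 2. By genotype, the mean was 140 ± 181 CPM in WT (SD, n = 4) and 155 ± 49.8 CPM in Tgfbr2-/- ILC2s (SD, n = 3). In experiment 1 the Tgfbr2-/- libraries were within the WT range, with a mean that fell by 0.46 on the log2(CPM + 1) scale. In experiment 2 the Tgfbr2-/- library was above both WT libraries, and above the mean of their values by 4.13 on that scale. Of all genes tested, 29.0% were also higher in that library than in both WT libraries. Markers of natural killer cells and ILC1s were higher there as well, with a sum of 956 CPM against 221 and 279 CPM in those WT libraries, led by *Gzma* (770 CPM against 157 and 182 CPM), and their part in the level of *Il22* was not tested. Over all 7 libraries the log2 fold change between genotypes was 1.33 (standard error 1.11, adjusted p = 0.898, edgeR; exact permutation within experiments, two-sided, p = 0.389). It was -0.63 in experiment 1 alone (standard error 0.48) and -0.64 without the Tgfbr2-/- library of experiment 2.

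Between experiments the log2 fold change of *Il22* was -3.25 (with a standard error of 1.19, experiment 2 against 1). It did not pass over all genes with edgeR (adjusted p = 0.289) and passed with DESeq2 (adjusted p = 0.0721). Of the 11981 genes tested, 0.977% were called between experiments, and none of the 8 members that passed the filter was. *Il23r*, *Il17f* and *Upp1* leaned the same way as *Il22*, with log2 fold changes of -3.03, -2.96 and -1.74. Without 1 library they ran from -5.33 to -2.24 for *Il22*, from -4.54 to -2.23 for *Il23r*, from -4.50 to -2.44 for *Il17f* and from -2.47 to -0.75 for *Upp1*. The values furthest from 0 came without the Tgfbr2-/- library of experiment 2, except for *Il17f*, where WT replicate 1 of that experiment was left out. Each of these 4 missed the threshold with edgeR and passed it with DESeq2 (adjusted p from 0.0721 to 0.0870), where DESeq2 called 11.2% of all genes tested. *Iltifb* followed *Il22*, with WT levels of 135, 56.1, 5.00 and 0.418 CPM and Tgfbr2-/- levels of 61.2, 76.8 and 36.7 CPM. Unlike *Il22*, *Il17a* leaned higher in experiment 2 (log2 fold change 1.02, standard error 1.51, edgeR). Of the 6 epithelial genes, 4 were called higher in experiment 2, and the part of epithelial cells in these differences was not tested.

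**Figure D2:**
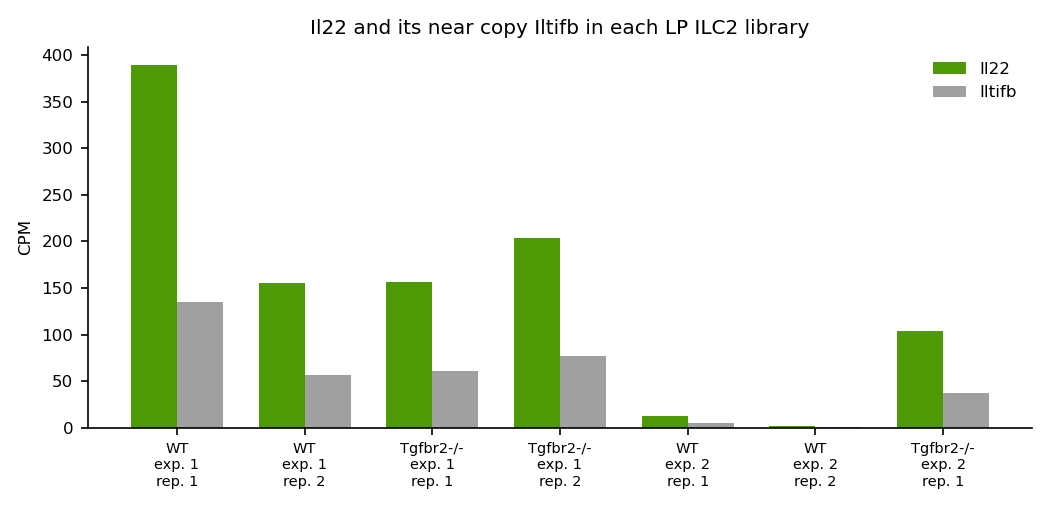
Bars give CPM of *Il22* (green) and *Iltifb* (grey) in the 7 LP ILC2 libraries, named by genotype, experiment and replicate, with no error since each bar is 1 library. The WT libraries of experiment 2 are at 12.4 and 1.67 CPM of *Il22*, the other 5 at 104 CPM or more.

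No read of *Il22* or *Iltifb* was counted in the 8 ILC2p libraries. Against a floor of 3 counts in each ILC2p library (0.181 CPM on average, for counting error alone), *Il22* was at least 807-fold higher in ILC2s by the means (exact permutation, two-sided, p = 4.08e-04, the smallest that 2450 arrangements can give). With no read in ILC2p, *Il22* passed the filter on low counts through ILC2s alone, so its call in the fit between the cell types (4.03% of all genes tested were called) adds nothing to this bound.

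The genes whose log2(CPM + 1) ran most like *Il22* over the 7 ILC2 libraries, among the 11981 tested, were *Iltifb* (Pearson r = 1.000), *Pde4b* (0.983), which encodes a cAMP phosphodiesterase, *Gm5177* (0.980), at most 0.700 CPM, *Il23r* (0.977) and *H2-Q10* (0.977), a class Ib major histocompatibility gene. These libraries share the 2 experiments, and the correlations are a description. *Upp1*, *Il17f* and *Ltb* had r of 0.849, 0.835 and 0.789 with *Il22*, whereas *Ahr* had 0.230 and *Il17a* -0.763. The genes most like *Ahr* were *BC031181* (0.959), *Ripk3* (0.958), which encodes a kinase of necroptosis, *Gm4013* (0.950), *Rnf111* (0.938), which encodes a ubiquitin ligase of TGF-β signaling, and *Stra13* (0.933).

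*Il17a* and *Il17f*, neighbours on chromosome 1 with 42654 bases between them on opposite strands, encode the cytokines that recruit neutrophils. *Il17a* was at 0.140, 4.85, 7.30 and 11.2 CPM in WT and at 6.81, 0.922 and 2.61 CPM in Tgfbr2-/- ILC2s. *Il17f* was at 11.02, 23.8, 4.10 and 0 CPM in WT and at 9.44, 30.4 and 2.98 CPM in Tgfbr2-/- ILC2s. The 2 genes did not run together, since the library with the most *Il17a* (WT replicate 2 of experiment 2) had no read of *Il17f*. Neither passed the test between genotypes (log2 fold changes -0.24, standard error 1.51, and 0.31, standard error 1.23, adjusted p = 0.993 and 0.984, edgeR). In ILC2p both had no read, so *Il17a* was at least 26.7-fold and *Il17f* at least 64.4-fold higher in ILC2s by the means against the floor of 3 counts per library. *Il17a* was above 0 in all 7 ILC2 libraries (exact permutation, two-sided, p = 4.08e-04) and *Il17f* in 6 of 7 (p = 0.00204 by the same exact test).

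Of 11 other genes of the IL-17 and IL-22 family and their receptors, *Iltifb* included, 5 passed the filter in ILC2s, 2 in ILC2p and 4 in the comparison of cell types, and none of those tested was called in any comparison, where 0% to 4.03% of all genes tested were. *Iltifb* was not among those tested between the cell types. With no read in ILC2p, it was at least 293-fold higher in ILC2s by the means against 3 counts per library. *Il17ra*, the receptor chain shared by this family, was at 69.3 to 333 CPM in ILC2s. *Il17re*, which pairs with it to bind IL-17C, reached 88.5 CPM in WT replicate 1 of experiment 1 and at 0.139 to 17.3 CPM in the other 6. That same library had the highest *Il22*, *Il23r*, *Ahr* and *Cd4* (86.1 CPM, against at most 45.1 CPM elsewhere). *Cd4* is borne by T cells and by some lymphoid tissue inducer cells. Other genes of the ILC3 surface list went both ways there. *Kit* (486 CPM) and *Il1r1* (7.56 CPM) were also highest of the 7 libraries. *Tnfsf11* (119 CPM), *Nrp1* (1.21 CPM) and *Ffar2* (47.5 CPM) were lowest, as was the member *Il17a* (0.140 CPM), and the rest of the list lay between. The 7 T cell genes summed to 127 CPM in that library and to 59.5 to 163 CPM in the other 6, led over all libraries by *Cd28* with 78.3 CPM there. Genes of natural killer cells and ILC1s, led by *Gzma*, summed to 434 CPM in it and to 221 to 956 CPM in the others, and *Eomes* had no read in any of the 7. B cell genes, led by *Cd79b*, summed to 45.7 to 87.9 CPM over the 7, with *Pax5* and *Vpreb1* at 0. The part of such cells in the level of *Il22* was not tested.

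*Lta* was present in all LP ILC2 libraries. WT libraries held 33.1, 66.6, 30.3 and 29.0 CPM and Tgfbr2-/- libraries 52.0, 30.9 and 28.5 CPM, 39.8 ± 17.98 CPM (SD, n = 4) against 37.1 ± 12.9 CPM (SD, n = 3). The genotypes overlapped (log2 fold change -0.21, standard error 0.37, adjusted p = 0.967, edgeR). In the marrow, WT libraries held 0.356, 51.0, 0.0847 and 46.0 CPM and Tgfbr2-/- libraries 0.297, 0.103, 4.25 and 0.193 CPM. Replicate 2 of each experiment in the WT was at the level of mature ILC2s, and the other 6 libraries were at 4.25 CPM or below, each with at least 1 read. The means over libraries were 3.02 times as high in ILC2s (exact permutation, two-sided, p = 0.00898), and the fit gave 2.69 log2 (standard error 1.43, adjusted p = 0.496, edgeR).

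*Ltb* had the highest level of the 9 and, of the members tested, the lowest p-value between genotypes in each cell type, with opposite signs. In the gut, WT ILC2s held 1315, 1032, 858 and 743 CPM and Tgfbr2-/- ILC2s 1502, 1313 and 1741 CPM. The groups touched at 1315 and 1313 CPM, and every Tgfbr2-/- library was above the WT median. The log2 fold change was 0.59 (standard error 0.22, unadjusted p = 0.0264, adjusted p = 0.898, edgeR; exact permutation within experiments, two-sided, p = 0.111). *Ltb* was the single member with an unadjusted p under 0.05 in this comparison, as were 4.65% of all genes tested, and none of the 11981 genes was called (0%). By the mean difference of log2(CPM + 1) the difference was 0.27 in experiment 1 and 1.12 in experiment 2. Without 1 library the fitted log2 fold change of *Ltb* ran from 0.22 to 0.78.

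In BM ILC2p *Ltb* was at 3541, 2258, 1967 and 1737 CPM in WT and at 1471, 1553, 1043 and 1588 CPM in Tgfbr2-/- libraries. Every Tgfbr2-/- library was below every WT library, as for 3.83% of the 9242 genes tested. The means were 2376 ± 806 CPM (SD, n = 4) and 1414 ± 252 CPM (SD, n = 4), and the exact permutation within experiments gave p = 0.0556 (two-sided), the smallest that 36 arrangements allow. Within experiments the mean of log2(CPM + 1) decreased by 0.90 in experiment 1 and decreased by 0.52 in experiment 2. The log2 fold change was -0.75 (standard error 0.21, unadjusted p = 0.00626) and missed the threshold over all genes (adjusted p = 0.149, edgeR), where 3.47% of all genes tested were called. It was called with upper quartile scaling (-1.06, adjusted p = 0.00507), without the filter (-0.75, adjusted p = 0.0222) and with limma on log2(RPKM + 1) (-0.98, adjusted p = 0.00216), which called 3.48%, 2.75% and 5.16% of the genes each tested. The median of all genes was -0.10 in this fit and -0.40 with upper quartile scaling. Of the ILC2 genes, *Il1rl1* (log2 fold change -1.96, adjusted p = 0.00156) and *Gata3* (-1.41, adjusted p = 0.0603, edgeR) were called lower in the same 4 libraries, which carried the neutrophil transcripts. The call of *Gata3* was lost in 6 of 8 fits without 1 library, all but those without WT or Tgfbr2-/- replicate 2 of experiment 2 (-1.85 to -0.99 over all alternatives). The part of these transcripts in the level of *Ltb* was not tested.

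The genotype effect on *Ltb* differed between the cell types by 1.33 log2 (standard error 0.32, adjusted p = 0.0952, edgeR), among 0.992% of 12806 genes called in that test. The median of this difference over all genes was 0.31, and 0.66 with upper quartile scaling, under which *Ltb* gave 1.70 (adjusted p = 0.00711) and 1.59% of genes were called. The call was lost with DESeq2 (1.18, adjusted p = 0.204) and in 10 of 15 fits without 1 library (1.03 to 1.51 over the 15). It held without WT ILC2 replicate 1 of experiment 1, without either WT ILC2p library of experiment 1 and without either Tgfbr2-/- ILC2p library of experiment 2. Over all 15 libraries *Ltb* did not pass between the cell types (log2 fold change -0.64 in ILC2s against ILC2p, standard error 0.25, adjusted p = 0.270, edgeR; exact permutation, two-sided, p = 0.0327, groups overlapping). It was called lower in ILC2s among WT libraries alone (log2 fold change -1.27, adjusted p = 0.0475, edgeR) and had a log2 fold change of 0.01 among Tgfbr2-/- libraries (standard error 0.22).

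**Figure D3:**
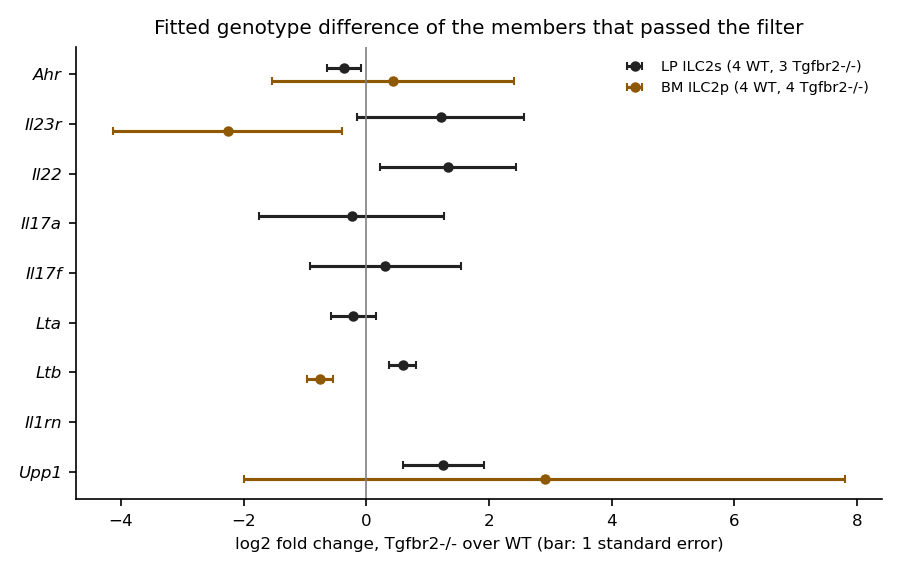
Points give the log2 fold change of Tgfbr2-/- over WT from edgeR, with bars of 1 standard error, for members that passed the filter on low counts in LP ILC2s (black, 8 members) or BM ILC2p (brown, 4 members). The bars of *Ltb* are short and lie on opposite sides of 0 (0.59 and -0.75), whereas that of *Upp1* in ILC2p spans 4.90 on either side.

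All 11 genes listed as lymphotoxin receptors, related ligands and non-canonical NF-κB passed the filter in ILC2s and in ILC2p, and none was called between genotypes, where 0% and 3.47% of all genes tested were. In ILC2p their fitted values lay on both sides of 0, from -4.17 for *Relb* to 6.47 for *Ltbr* (median -1.98, against -0.10 over all genes tested). *Nfkb2*, the precursor of the p52 subunit, was at 229, 205, 153 and 216 CPM in WT ILC2s and at 256, 446 and 249 CPM in Tgfbr2-/- ILC2s. *Relb*, its partner, was at 39.2, 113, 53.3 and 60.9 CPM and at 164, 129.5 and 118 CPM, in the same order of genotypes. These 2 genes, *Map3k14*, which encodes the kinase NIK, and *Tnfsf14*, which encodes the ligand LIGHT, were 4 of the 11 whose Tgfbr2-/- values all lay above the WT values in ILC2s, as did those of 3.04% of all genes tested. None of the 4 passed over all genes (log2 fold changes 0.56 to 1.19, unadjusted p from 0.0188 to 0.0417, adjusted p = 0.898 for each, edgeR), and the median of the 11 was -0.17, against -0.01 over all genes tested. *Ltbr*, the receptor for the lymphotoxin heterotrimer, was at 0.215 to 23.3 CPM in ILC2s and at 177, 91.3, 10.9 and 153 CPM in Tgfbr2-/- ILC2p, against at most 10.3 CPM in WT ILC2p. The lowest of these 4 was thus close to the WT maximum. The neutrophil genes were high in the same 4 libraries, and their part in the level of *Ltbr* was not tested.

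*Il1rn* encodes the IL-1 receptor antagonist, a soluble inhibitor that neutrophils, macrophages and epithelial cells make in quantity. In LP ILC2s it had no read in 5 of 7 libraries and was at 4.81 CPM in WT replicate 2 and 7.84 CPM in the Tgfbr2-/- library of experiment 2. Those were the 2 ILC2 libraries with the most epithelial transcripts (444 and 1295 CPM summed over 6 genes, against 6.77 to 111 CPM in the other 5). The WT library among them also had the highest macrophage sum (334 CPM, against at most 37.3 CPM in the other 6). The part of such cells in these reads was not tested. In ILC2p it was at 0.356, 0.290, 0.113 and 0.145 CPM in WT, 4 to 6 reads a library, and at 23.0, 301, 53.9 and 0.425 CPM in Tgfbr2-/- libraries. The groups did not overlap (6.29% of genes tested in ILC2p were likewise higher), but 1 Tgfbr2-/- library, with 11 reads, was at the level of WT. The exact permutation within experiments gave p = 0.0556 (two-sided, the smallest possible), and *Il1rn* did not pass the filter in either comparison of genotypes.

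The neutrophil genes were also higher in the 4 Tgfbr2-/- ILC2p libraries. Of the 9, 8 were called, against 3.47% of all genes tested, with *Ltf*, *Ngp* and *S100a9* at 8.39, 8.36 and 8.34 log2. All 9 had reads in all 8 ILC2p libraries. In those 4 libraries the neutrophil sum was 92971, 78075, 76412 and 89636 CPM where *Il1rn* was at 23.0, 301, 53.9 and 0.425 CPM. The last of them had 7.27% of the abundant genes under 1 CPM, and 4 libraries cannot show whether the levels run together. Of the 7 genes of the IL-1 system, 3 passed the filter in ILC2p and 1 was called between genotypes, where 3.47% of all genes tested were. The called gene was *Il1r2*, a decoy receptor for IL-1 that neutrophils carry. The WT ILC2p libraries held 0.178, 0.464, 0.790 and 0.460 CPM of it and the Tgfbr2-/- libraries 222, 64.3, 228 and 174 CPM (log2 fold change 8.49, standard error 1.01, adjusted p = 0.00195, edgeR). In ILC2s *Il1r2* was at 0.336 to 16.8 CPM with no difference called, and the genotype effect differed between the cell types by -9.15 log2 (standard error 1.89, adjusted p = 0.0510, edgeR), a call lost in 3 of 15 fits without 1 library, namely ILC2 replicate 1 of either genotype in experiment 1 and the lone Tgfbr2-/- ILC2 library of experiment 2. *Il1b* was at 10.9, 104, 214 and 0.541 CPM in Tgfbr2-/- ILC2p and at most 0.536 CPM in WT ILC2p. The lineage antibodies of the sort, by the methods, included anti-CD11b and anti-Gr-1, which bind neutrophils, and how the neutrophil transcripts came into these libraries was not tested. The part of neutrophils in these levels was not tested.

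*Upp1* encodes uridine phosphorylase 1, which splits uridine in pyrimidine salvage. WT ILC2s held 49.2, 9.16, 6.57 and 4.46 CPM and Tgfbr2-/- ILC2s 39.2, 49.3 and 25.8 CPM, 17.3 ± 21.3 CPM (SD, n = 4) against 38.1 ± 11.8 CPM (SD, n = 3). A single WT library, replicate 1 of experiment 1, reached the Tgfbr2-/- range. The fit gave 1.25 log2 (standard error 0.66, adjusted p = 0.898, edgeR; exact permutation, two-sided, p = 0.111), positive in both experiments. It was 2.25 without WT replicate 1 of experiment 1 and 0.56 without the Tgfbr2-/- library of experiment 2. WT ILC2p held 62.2, 0.0580, 0.536 and 0.266 CPM and Tgfbr2-/- ILC2p 21.3, 0.103, 46.5 and 101 CPM. All 8 ILC2p libraries had reads of it, from 1 read to 2621, and each group held both high and low libraries. The fit in ILC2p gave 2.91 log2 (standard error 4.90, adjusted p = 0.940, edgeR), and 0.01 to 7.41 without 1 library. Between the cell types the fitted difference was 0.00 (standard error 1.09; -0.68 to 2.81 without 1 library), and the difference of mean log2(CPM + 1) was 1.46 (exact permutation, two-sided, p = 0.209, groups overlapping).

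**Figure D4:**
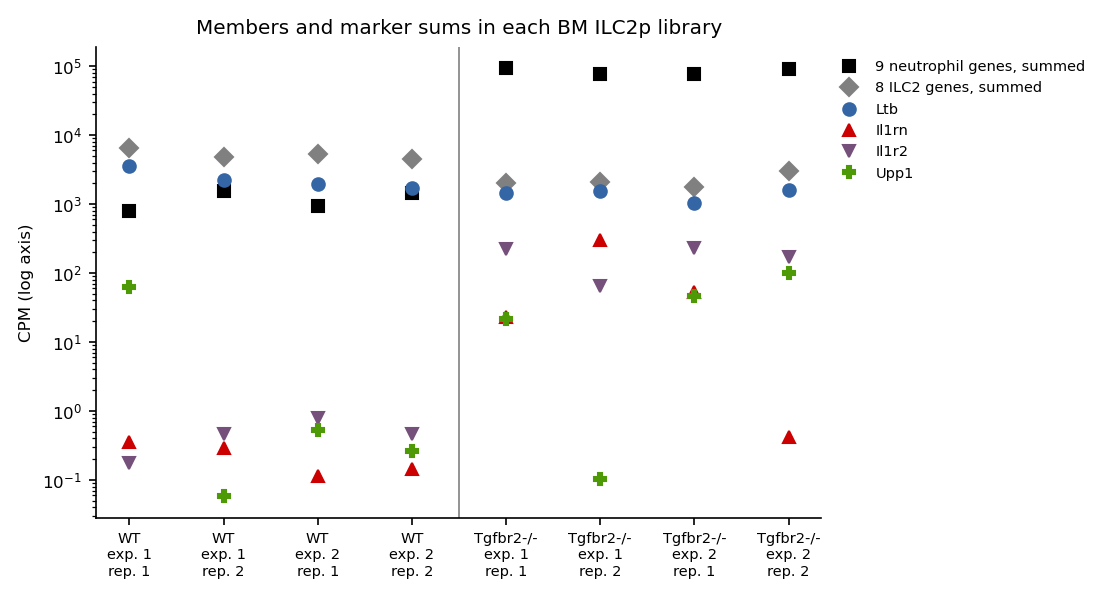
Level, in CPM on a log axis, of *Ltb*, *Il1rn*, *Il1r2* and *Upp1* in the 8 BM ILC2p libraries, with the summed CPM of 9 neutrophil and 8 ILC2 genes; WT libraries are left of the line. The neutrophil sum is 787 to 1553 CPM in WT and 76412 to 92971 CPM in Tgfbr2-/- libraries, and *Ltb* is lower and *Il1rn* higher in every Tgfbr2-/- library.

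Of 8 other genes of pyrimidine salvage, 5 passed the filter in each cell type and none was called in any comparison, where 0% to 4.03% of all genes tested were. *Uck1* and *Uck2*, the uridine kinases, were at 56.3 to 162 CPM and 18.7 to 98.4 CPM in ILC2s, and *Upp2*, the related phosphorylase, at 0.0562 CPM or below there. Of the 6 genes that the study picked from these libraries as ILC3-associated, which include *Il22* and *Upp1*, none was called between genotypes in ILC2s. Their median log2 fold change was 1.29 against -0.01 over all genes, which is not independent evidence since they were chosen on these samples. In ILC2p 2 of 5 tested were called higher in Tgfbr2-/- libraries, *Il1r2* and *Gda*, a guanine deaminase gene, where 3.47% of all genes were called either way. *Gda* was at 0.267, 0.232, 1.33 and 0.460 CPM in WT and at 106, 153, 112 and 312 CPM in Tgfbr2-/- ILC2p (log2 fold change 8.37, standard error 1.03, adjusted p = 0.00241, edgeR). The 9 neutrophil genes had a median log2 fold change of 8.21 in the same libraries, and their part in the level of *Gda* was not tested. Between the cell types *Ccl5*, a chemokine gene of this group, was called lower in ILC2s (-2.26, standard error 0.44, adjusted p = 0.00607, edgeR). From the ILC3 surface list *Gpr183*, a receptor for oxysterols that guides ILC3s in the gut, was called higher in ILC2s (1.45, standard error 0.24, adjusted p = 0.00134, edgeR), with 214 to 425 CPM against 67.8 to 155 CPM. *Ffar2*, a receptor gene for short-chain fatty acids on the same list, was the single one of its 10 genes that did not overlap between genotypes in ILC2s, at 47.5, 51.5, 64.5 and 62.8 CPM against 123, 117 and 91.7 CPM in Tgfbr2-/- ILC2s, where 3.04% of all genes tested were likewise higher. It did not pass over all genes (0.96, standard error 0.24, adjusted p = 0.898, edgeR).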

How the data were processed

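The data are 7 RNA-seq libraries of LP ILC2s and 8 of BM ILC2p, from 2 experiments per cell type. Per the methods, reads were mapped to mm9 with TopHat, keeping up to 15 hits per read; per the labels' processing notes the tool was Bowtie2. The authors deposited raw counts per RefSeq gene, and RPKM computed from them over transcripts with regions shared by genes of different names left out. Library strand is not given in the sources used here, so reads of a gene and of an overlapping antisense gene cannot be told apart.

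The members and gene lists were chosen with earlier results of these data known. The deposited counts went into edgeR 4.0.16 under R 4.3.3 (TMM, filterByExpr, quasi-likelihood test, Benjamini-Hochberg over all genes tested), with the experiment as covariate for genotype, the genotype as covariate for cell type, and both for their interaction. Genes at adjusted p under 0.1 and fold change over 1.5 were called, which are the cutoffs of the methods. By those methods the study used fewer replicates in each condition than were pooled here, and they do not say which libraries. It reported *Il22* and *Upp1* as increased in Tgfbr2-/- ILC2s, so the calls here are not a repeat of its own. A standard error was the log2 fold change over the square root of F. CPM were scaled with TMM over all 15 libraries. Mean differences of log2(CPM + 1) were permuted exactly over libraries (18, 36 or 2450 arrangements). For a group without reads, a fold was taken against 3 counts per library. Gene positions and coding sequences came from the NCBIM37 genome and its GENCODE annotation. Genes named are the members, *Tgfbr2*, *Iltifb*, the called genes of each pathway list (at most 3 per comparison), the leading gene of each marker list and the 5 genes most correlated with *Il22* and with *Ahr*; other list genes were named after their values were seen. As alternatives, upper quartile scaling, DESeq2 1.42.0, limma 3.58.1 with log2(RPKM + 1), no filter, no experiment term, a replicate block, single experiments or genotypes, adjusted p under 0.05, and leaving out each library were run. The fits were tested on simulated data. Other steps ran in Python 3.11.15 (numpy 2.4.6; pandas 2.3.3; plots with matplotlib 3.10.9).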

Additional observations from a re-analysis of the deposited data

Results flagged for a closer look

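In groups of 4 libraries, 21 values of members by group were screened for a library whose gap to its nearest neighbour exceeded Dixon's 95% critical value on the log2(CPM + 1) scale, and 6 were past it. Chance gives about 1 in 20, a rate that does not hold for 2 of the 6 (*Il23r* and *Il1rn*), in which 3 libraries had no read and the fourth is past the value by construction. *Ahr* was low in WT ILC2p replicate 1 of experiment 1 (0.445 CPM), the library in which *Upp1* was high (62.2 CPM). *Lta* was high in WT ILC2s replicate 2 of experiment 1 (66.6 CPM). In Tgfbr2-/- ILC2p replicate 1 of experiment 2, *Lta* (4.25 CPM) and *Il23r* (1.44 CPM) were above the other 3 libraries. *Il1rn* was seen in a single WT ILC2 library, replicate 2 of experiment 2 (4.81 CPM), which also held macrophage and epithelial transcripts. The genotype effect on *Ltb* in ILC2s minus that in ILC2p was 1.33 log2 by a test of the interaction (adjusted p = 0.0952, edgeR), with Tgfbr2-/- above the WT median in 3 of 3 ILC2 libraries and below it in 4 of 4 ILC2p libraries.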

How the results depend on the processing

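Genes called between genotypes in LP ILC2s numbered 0, and 338 with DESeq2 (269 higher) and 3 without the filter; in ILC2p they numbered 321 (241 higher), 1229 with DESeq2, 38 in experiment 1 alone, 77 in experiment 2 alone and 179 to 319 without 1 library. Between cell types 431 were called (237 higher in ILC2s), 1303 with DESeq2, 1757 without the filter, 1335 with limma, 268 among WT and 1575 among Tgfbr2-/- libraries; upper quartile scaling gave 347 higher of 465. Between experiments 117 were called (34 higher in experiment 2), 5 at adjusted p under 0.05, 1347 with DESeq2, 31 with upper quartile scaling (13 higher), 320 without the filter, 0 among WT libraries alone and 0 to 19 without 1 library; limma gave 102 higher of 173. For genotype by cell type 127 were called (60 higher), 68 at adjusted p under 0.05, 1509 with DESeq2, 203 with upper quartile scaling (146 higher), 259 without the filter, 382 with limma and 14 to 407 without 1 library. The cause of these changes was not tested.

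With a replicate block, 175 genes were called in ILC2p and 0 in ILC2s, and *Ahr* in ILC2p turned to -0.98; the correlations of same-numbered libraries were -0.045, -0.007 and -0.036, so the libraries share only a number.

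Of 525 repeats of the members' fold changes, 462 kept direction and call, 36 turned, 16 gained a call (8 of them with DESeq2) and 11 lost one, all of *Ltb* for genotype by cell type. Between genotypes in ILC2s, experiment 1 alone turned *Il22* (-0.63), *Il17a* (0.64) and *Il23r* (-0.18), and without 1 library the ranges crossed 0 for *Il22* (-0.64 to 2.26), *Il17a* (-1.63 to 1.29), *Il17f* (-0.14 to 1.5), *Il23r* (-0.20 to 2.04) and *Lta* (-0.38 to 0.11). In ILC2p *Ahr* turned with upper quartile scaling (-0.08), limma (-0.51), experiment 2 alone (-0.25) and without 1 library (-1.78 to 1.26), and *Upp1* in experiment 1 alone (-1.55). Between cell types *Upp1* turned with DESeq2 (-0.09), without the filter (-0.03), among Tgfbr2-/- libraries (-0.21) and without 1 library (-0.68 to 2.81), and *Ltb* among Tgfbr2-/- libraries (0.01). Between experiments *Ahr* ran from -0.52 to 0.07 without 1 library. For genotype by cell type *Ahr* turned with limma (0.31) and without 1 library (-1.63 to 1.28), and *Upp1* ran from -6.18 to 1.25. No member had been called in the comparison in which it turned. Of the other genes called, *Tiparp*, *Ccl5* and *Gpr183* lost the call among Tgfbr2-/- libraries alone and *Tiparp* also with DESeq2, whereas *Gda*, *Il1r2* and *Il1rl1* in ILC2p lost it in experiment 1 alone, and *Gda* and *Il1rl1* in experiment 2 alone too. No call of these 6 genes was lost without 1 library in the comparison of genotypes in ILC2p or of cell types.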
